A study of Mus musculus with 2 samples.

Results

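Striatal projection neurons are the GABAergic output neurons of the striatum, the large nucleus that lies beneath the cerebral cortex. They form a direct pathway, marked by the D1 dopamine receptor with substance P and dynorphin, and an indirect pathway, marked by the D2 dopamine receptor with enkephalin, the adenosine receptor Adora2a and the orphan receptor Gpr6. Dopamine acts on the first through D1 and stimulatory G proteins and on the second through D2 and inhibitory ones, and DARPP-32 relays the cAMP signal in both. Some of these genes are not confined to the striatum, since enkephalin, substance P and dynorphin precursors are also made in cortical neurons.

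The genes described are 9 named ones, Drd1, Tac1 and Pdyn for the direct pathway, Drd2, Penk, Adora2a and Gpr6 for the indirect pathway, and Six3 and Ppp1r1b, which were assigned to neither. They were picked by name, with their differences in these data already known, so their own values are given as a description. All probe sets that the platform annotation gives to exactly 1 of these genes were taken. Adora2a had no such probe set, so 8 of the 9 genes were read, by 12 probe sets, out of 18193 named genes on the array.

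Gene expression was read on 2 Affymetrix arrays, 1 per group, each hybridised with RNA pooled from 3 newborn mice. The control pool came from mice labelled MRTFA-/-;MRTF-BFlox/Flox, and the double knockout pool from mice labelled MRTF-A-/-;MRTF-BF/F;GFAP-Cre, so both groups carry the Mrtfa null allele and floxed Mrtfb and the second adds the Cre transgene. MRTF-A and MRTF-B are actin-responsive coactivators of the transcription factor SRF, and the comparison asks what differs once Mrtfb is deleted on an Mrtfa-null background. The transgene is named for the GFAP promoter, which is active in radial glia and astrocytes. Which cells lost Mrtfb, including those descended from radial glia, is not known here. Both pools are labelled brain cortex at postnatal day 0, although their titles say only brain. For the double knockout pool, 1 label field gives day 1 instead of day 0. A group of 1 array has no replicates and allows no test, and pooling hides how the 3 animals of a group differed.

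Signals are MAS5 probe set signals on a linear scale and are given as deposited. Differences are log2, double knockout minus control, after centring the arrays by 0.0037 log2, with signals under a floor of 178.9 set to the floor. Genes with a probe set at the floor or brighter in either pool count as measured, which 11634 did, and each is read from its brightest probe set. Across all measured genes the median difference was 0.01 log2. Over 4858 genes that several probe sets above the floor read in both pools, the pooled SD between probe sets of a gene was 0.181 log2, the only measure of error these arrays give, and it includes no spread between animals.

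The targeted genes were read first. Mrtfb read 3358.9 in the control pool and 2481.8 in the double knockout pool, a difference of -0.44 log2, or a mean of -0.33 ± 0.15 (SD, 2 probe sets). Mrtfa, labelled null in both pools, read 601.6 and 262.4, a difference of -1.20 log2 on 1 probe set, so this signal differed between pools that carry the same label for it. The position of these probe sets relative to the deleted exons is not known here. The pools are called control and double knockout as labelled throughout. Of 8 listed markers of cortical projection neurons 7 were measured, and Tbr1, Emx1, Fezf2, Cux2, Neurod2, Neurod6 and Slc17a7 all reached the floor in both pools (Fezf2, Neurod2 and Neurod6 chosen after their values were seen).

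The upstream sequence of 4 of the genes is shown because they are the receptor and a second marker of each pathway. RefSeq promoter windows were at hand for 6 of the 9 genes, Drd1, Drd2, Tac1, Pdyn, Six3 and Gpr6, as 8 windows of assembly GRCm38.p6, and each sequence is the 250 bases before an annotated transcription start, 5′ to 3′ on the strand of the gene. Capitals mark the cAMP response element TGACGTCA, its half-site TGACG, and the E-box CACGTG, searched on both strands together with the CArG box, the site SRF binds. The motifs were chosen with the sequences in view.
Drd1, chr13:54055659-54055908, minus strand: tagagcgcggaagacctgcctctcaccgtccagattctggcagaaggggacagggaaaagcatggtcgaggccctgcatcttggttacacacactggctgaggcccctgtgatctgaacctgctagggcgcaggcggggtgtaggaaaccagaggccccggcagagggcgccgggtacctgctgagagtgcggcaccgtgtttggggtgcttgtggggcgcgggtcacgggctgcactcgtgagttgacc
Tac1, chr6:7554811-7555060, plus strand: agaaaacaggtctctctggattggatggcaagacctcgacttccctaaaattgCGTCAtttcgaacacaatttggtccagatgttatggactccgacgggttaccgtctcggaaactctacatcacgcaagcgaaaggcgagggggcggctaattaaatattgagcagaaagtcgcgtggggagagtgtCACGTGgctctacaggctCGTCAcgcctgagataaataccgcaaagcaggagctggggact
Drd2, chr9:49340153-49340402, plus strand: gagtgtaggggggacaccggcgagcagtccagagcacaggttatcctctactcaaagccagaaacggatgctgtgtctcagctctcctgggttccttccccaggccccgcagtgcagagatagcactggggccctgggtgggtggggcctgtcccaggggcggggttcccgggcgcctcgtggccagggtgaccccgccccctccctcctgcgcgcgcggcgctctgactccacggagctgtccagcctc
Gpr6, chr10:41072291-41072540, minus strand: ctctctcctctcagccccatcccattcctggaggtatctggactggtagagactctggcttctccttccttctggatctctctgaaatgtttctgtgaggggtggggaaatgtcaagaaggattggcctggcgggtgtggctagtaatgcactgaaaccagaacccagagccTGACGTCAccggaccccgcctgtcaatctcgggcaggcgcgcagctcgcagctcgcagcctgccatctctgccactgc

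The Gpr6 window holds the whole cAMP response element, beginning 78 bases before the start, and 1.55% of 32851 windows of the same length hold it. This palindrome contains the half-site on both strands. The Tac1 window holds 2 half-sites, which begin 197 and 43 bases before the start, and an E-box that begins 61 bases before it. The half-site lies in 17.8% of all windows and the E-box in 6.02%. Neither of the 2 Drd1 windows holds any of these letters, nor do the windows of Drd2, Pdyn and Six3. The CArG box, found in 1.47% of all windows, lies in 0 of the 8 member windows. These matches describe letters and not bound sites.

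All 8 genes that could be read gave lower signal in the double knockout pool than in the control pool. Their differences ran from -0.42 to -0.07 log2 with a median of -0.33, against a median of 0.01 over all measured genes, of which 47.1% were lower. Past 1.2-fold lower were 6 of the 8, where 8.35% of all measured genes were, and 0 of the 8 passed 1.5-fold lower, where 0.774% were. Because the genes were chosen with these differences known, the counts are read only beside that background and support nothing further. In bulk tissue, fewer cells of a type and less RNA per cell cannot be told apart. Nor can these be told apart from a different amount of striatum in the pools, both labelled brain cortex.

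**Figure D1:**
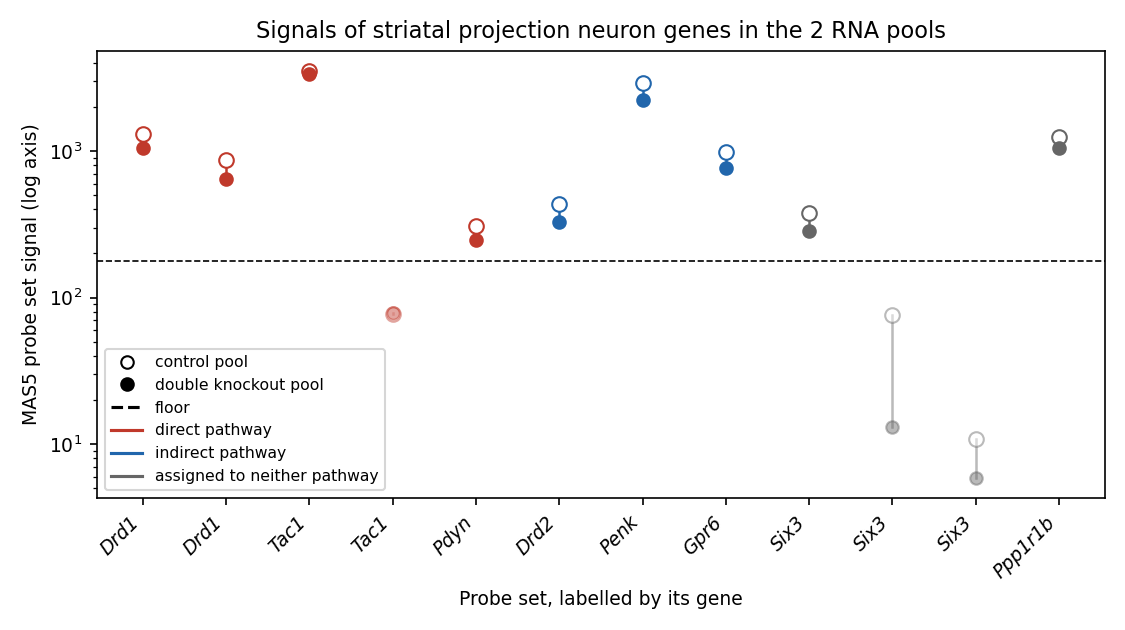
MAS5 signal (log axis) of the 12 probe sets of 8 genes, with an open point for the control pool and a filled point for the double knockout pool. The dashed line is the floor of 178.9; the 9 probe sets above it are lower in the double knockout pool, and the 3 paler ones, 1 of Tac1 and 2 of Six3, are under it on both arrays.

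Among direct pathway genes, Drd1, the dopamine receptor that raises cAMP, was read by 2 probe sets. The brighter one read 1300.3 in the control pool and 1050.4 in the double knockout pool. The dimmer one read 864.4 and 645.1. Both were lower in the double knockout pool, by -0.31 and -0.43 log2, with a mean of -0.37 ± 0.08 (SD, 2 probe sets). Drd1 is the only gene of the set with more than 1 probe set at or above the floor, and so the only one with a second reading of its direction.

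Pdyn encodes prodynorphin, the precursor of dynorphin peptides. Its 1 probe set read 308.3 in the control pool and 248.3 in the double knockout pool, 1.24-fold lower, or -0.32 log2. Tac1 encodes the precursor of substance P and neurokinin A. Its measured probe set read 3508.2 and 3340.7, a difference of -0.07 log2 or 1.05-fold. That is within the 0.181 log2 spread between probe sets of 1 gene. The second Tac1 probe set was under the floor on both arrays, at 76.7 and 78.5, and gives no direction.

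Among indirect pathway genes, Drd2, the dopamine receptor that lowers cAMP, read 434.7 in the control pool and 325.8 in the double knockout pool. It was 1.34-fold lower, at -0.42 log2 the largest difference of the set by brightest probe set, although Penk was lower than Drd2 under quantile normalization, loess centring and the pseudocount. Penk encodes proenkephalin, the precursor of the enkephalins. Its probe set read 2928.0 and 2234.1, 1.31-fold lower, or -0.39 log2. Gpr6, an orphan receptor that raises cAMP without an added ligand, read 976.7 and 768.0, 1.28-fold lower, or -0.35 log2. Each of these genes rests on 1 probe set, and Adora2a, the adenosine receptor of the same neurons, was not read.

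Ppp1r1b encodes DARPP-32, which inhibits protein phosphatase 1 once protein kinase A has phosphorylated it. It read 1244.4 in the control pool and 1052.3 in the double knockout pool, 1.19-fold lower, or -0.25 log2. Six3 is a homeodomain transcription factor of the developing forebrain and eye that is also made in striatal precursors. Its brightest probe set read 375.7 and 282.9, 1.33-fold lower, or -0.41 log2. The other 2 Six3 probe sets were under the floor on both arrays, at 76.1 and 13.0 and at 10.9 and 5.9, where signals have no order, so the Six3 difference also rests on 1 probe set.

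Set among all 11634 measured genes, ordered from the lowest difference, the indirect pathway genes Drd2, Penk and Gpr6 stood at ranks 309, 389 and 539. Six3 stood at rank 331. Of the direct pathway genes, Pdyn and Drd1 stood at ranks 672 and 699, and Ppp1r1b at rank 1089. Tac1 stood at rank 3473, with 29.9% of measured genes at or below it. Ppp1r1b, the 7th of the 8 genes in this order, had 9.36% of measured genes at or below it, and 308 genes lay lower than Drd2, the lowest member. These ranks describe genes picked with their differences known and support nothing further.

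**Figure D2:**
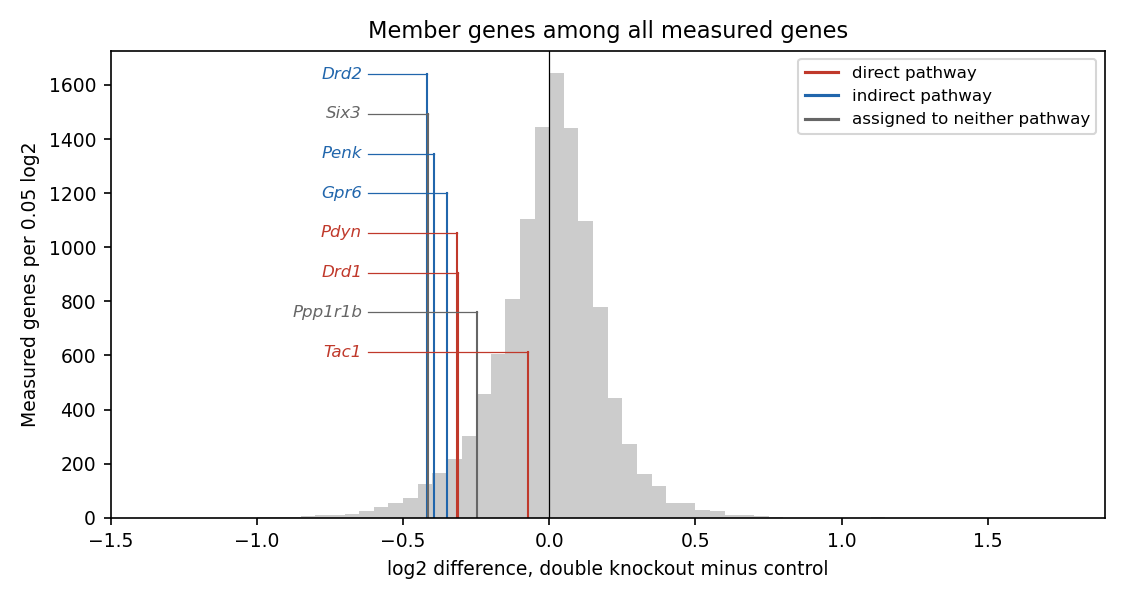
Histogram of the log2 difference (double knockout minus control) of all 11634 measured genes in bins of 0.05 log2, with a coloured line for each of the 8 member genes. The heights of the coloured lines carry no value; Drd2 at -0.42 is the lowest member and Tac1 at -0.07 lies in the body of the histogram.

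Direct and indirect pathway genes were then set side by side. The 3 direct genes had differences from -0.32 to -0.07 log2 with a median of -0.31. The 3 indirect genes measured had differences from -0.42 to -0.35 with a median of -0.39. The medians thus differed by -0.08 log2, indirect minus direct, and by -0.12 under quantile normalization and -0.13 under loess centring. A floor at the 75th percentile left out Drd2 and Pdyn and gave -0.18. Read from the brightest probe sets the ranges did not overlap, but the dimmer Drd1 probe set, at -0.43, was as low as Drd2, and with the mean over its probe sets Drd1, at -0.37, fell inside the indirect range. Tac1 was the direct gene farthest from the indirect genes, by up to 0.35 log2, while Drd1 and Pdyn lay within 0.11 log2 of every indirect gene. The genes share both arrays and are not replicates, so no test of a difference between the pathways was made.

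**Figure D3:**
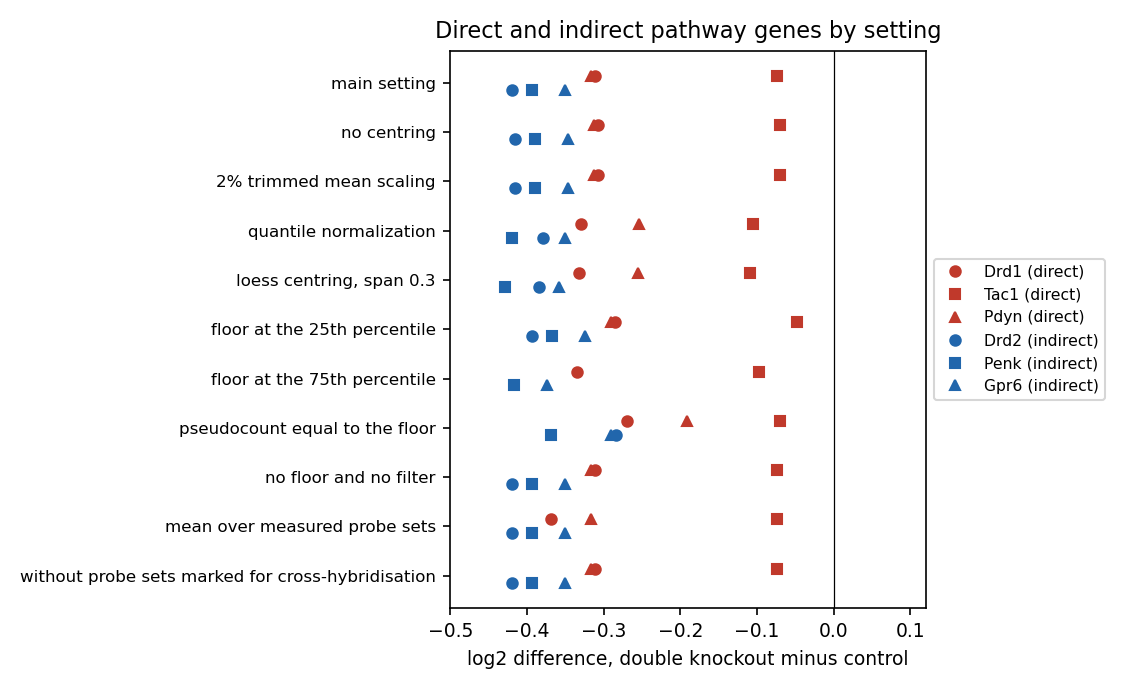
log2 difference (double knockout minus control) of 3 direct (red) and 3 indirect (blue) pathway genes under the main setting and 10 alternatives. Every point lies below 0; Tac1 is always nearest to 0, between -0.11 and -0.05, and Drd2 and Pdyn have no point with the floor at the 75th percentile, where they were not measured.

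The broader gene lists of these neurons had medians nearer to 0. A list of other striatal signalling genes had 12 of 13 genes measured, 9 lower and 3 higher, where 47.1% of all measured genes were lower. Their median was -0.07 log2, or -0.10 with the mean over probe sets, which gave 10 lower and 2 higher. On the brightest probe sets 0 of the 12 passed 1.2-fold in either direction. Of all measured genes 8.35% were lower and 5.6% higher past 1.2-fold. Adcy5, the main striatal adenylyl cyclase, read 1950.3 in the control pool and 1658.6 in the double knockout pool, -0.24 log2, and averaged -0.48 ± 0.34 (SD) over 2 probe sets. Pde10a, the phosphodiesterase that breaks down cyclic nucleotides in these neurons, read 3983.1 and 3457.0, -0.21 log2, and averaged -0.29 ± 0.08 (SD) over 3 probe sets. Both are lower over all their probe sets, as Drd1 is. Gng7, a G protein gamma subunit, differed by -0.20 on 1 probe set. Rasd2, a striatal small GTPase, was at -0.22 on the brightest probe set and averaged 0.04 ± 0.36 (SD) over both, so its direction depends on the probe set. Gnal, the stimulatory G protein alpha subunit through which the Drd1 and Adora2a receptors signal, chosen after its values were seen, was at 0.07 and averaged -0.13 ± 0.33 (SD) over 3 probe sets.

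Transcription factors of striatal neurons had 9 of 10 measured, 6 lower and 3 higher, where 47.1% of all measured genes were lower. Their median was -0.05 log2, with 1 past 1.2-fold lower, where 8.35% of all measured genes were. That gene was Rarb, a retinoic acid receptor, at 852.5 in the control pool and 707.9 in the double knockout pool, -0.27 log2. Zfp503, also called Nolz1, differed by -0.23 and Rxrg, a retinoid X receptor, by -0.22, each on 1 probe set. Foxp2 was at -0.20 and averaged -0.29 ± 0.25 (SD) over 4 probe sets. Bcl11b and Foxp1, which cortical projection neurons also express, were chosen after their values were seen and differed by 0.18 and 0.17 on their brightest probe sets. Their means over probe sets were -0.06 ± 0.26 (SD, 4 probe sets) and 0.02 ± 0.16 (SD, 8 probe sets), near 0.

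Further markers of each pathway gave no common direction. Of 7 other direct pathway genes 5 were measured, 2 lower and 3 higher, and their median was 0.00437 log2. Slc35d3, a transporter-like protein of direct pathway neurons chosen after its values were seen, read 307.8 in the control pool and was under the floor in the double knockout pool, at least 1.72-fold lower. Isl1, a LIM-homeodomain factor of direct pathway neurons, read 227.8 and 204.3, -0.16 log2, and Sfxn1, a mitochondrial carrier, differed by 0.16, or 0.14 ± 0.03 (SD, 2 probe sets). Zfp521 and Eya1 differed by 0.01 and 0.00437. Ebf1 and Chrm4, chosen after their values were seen, were under the floor on both arrays. Of 5 other indirect pathway genes 2 were measured, Plxdc1 at -0.29 and Grik3 at 0.15.

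Receptors related to the members or bound by their peptides were mostly dim, with 5 of 15 measured, 3 lower and 2 higher. Their median was -0.11 log2, or -0.25 with no floor and no filter, and 0.02 once probe sets marked for cross-hybridisation were dropped. Oprk1, the kappa opioid receptor on which dynorphin acts, read 429.0 in the control pool and 331.9 in the double knockout pool, -0.37 log2, and its ligand's gene Pdyn was at -0.32. Oprl1, the nociceptin receptor, differed by -0.25, or -0.22 ± 0.09 (SD, 3 probe sets). The tachykinin receptors Tacr3 and Tacr2 differed by -0.11 and 0.09. The enkephalin receptors Oprd1 and Oprm1, the substance P receptor Tacr1, and the dopamine receptors Drd3 and Drd4, all chosen after their values were seen, were under the floor on both arrays. Other peptide precursors of the opioid and tachykinin families went both ways. Pnoc differed by -0.10 and Tac2 by -0.14, while Pomc read 189.8 and 315.9, 0.73 log2 higher from a control signal close to the floor.

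A list of genes set beside DARPP-32 and Six3 had differences from -0.12 to 0.04 log2. Of 8 listed 3 were measured, 1 lower and 2 higher. Their median of 0.03 log2 turned to -0.0037 under quantile normalization, to -0.0082 under loess centring and to -0.0043 when probe sets were averaged. Ppp1r1a, inhibitor 1, a close relative of DARPP-32, differed by 0.04 and Six2 by -0.12. Arpp19 differed by 0.03 on its brightest probe set and by -0.0082 after loess centring.

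**Figure D4:**
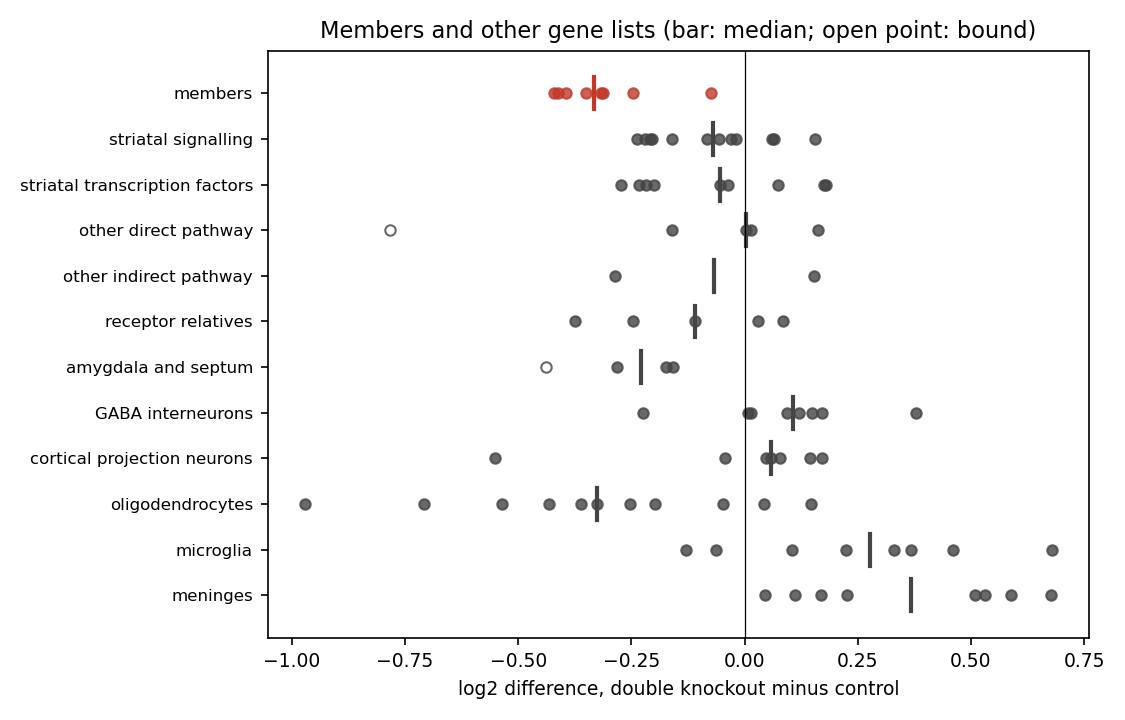
log2 difference (double knockout minus control) of each measured gene in the member set (red) and in 11 other lists, with a bar at each list's median and open points for genes under the floor on 1 array. The member median of -0.33 lies below those of the striatal signalling genes at -0.07 and striatal transcription factors at -0.05, and near that of the oligodendrocyte genes at -0.32.

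Markers of other cells and regions differed between the same pools in both directions. Of 13 oligodendrocyte genes 11 were measured, 9 lower and 2 higher, where 47.1% of all measured genes were lower. Their median was -0.32 log2. Their summed signal was 25305.7 in the control pool and 21379.7 in the double knockout pool. The myelin genes Mobp, Mag, Ugt8a and Mbp differed most, by -0.97, -0.71, -0.54 and -0.43. The lineage genes Olig1, Olig2, Sox10, Pdgfra and Cspg4, chosen after their values were seen, were at 0.04, -0.05, -0.25, 0.15 and -0.20. Over their probe sets Sox10, Pdgfra and Cspg4 averaged -0.12 ± 0.14, -0.02 ± 0.24 and 0.01 ± 0.29 (SD). Markers of amygdala and septum had 4 of 6 measured, all 4 lower, where 47.1% of all measured genes were. Their median was -0.23, with summed signals of 3966.9 and 3460.5. Of these, Zic1 averaged -0.03 ± 0.20 (SD) over 2 probe sets. Zic4, chosen after its values were seen, was under the floor in the double knockout pool. Among them Cyp26b1, which degrades retinoic acid, differed by -0.28. In the other direction, all 8 meningeal genes and 6 of 8 microglial genes were higher, where 52.9% of all measured genes were, with medians of 0.37 and 0.28. Over the alternatives the meningeal median ran from 0.20 to 0.50 and the microglial median from 0.20 to 0.33. With the mean over probe sets 5 microglial genes were higher, and after quantile normalization 7. Summed signals of the meningeal genes were 6349.9 and 8350.0, and those of the microglial genes 5722.7 and 6707.8. Of 6 thalamic genes 4 were measured, 3 lower and 1 higher, with summed signals of 3280.3 and 3233.8. Their median was -0.13, or -0.03 for floors at either the 25th or the 75th percentile, and Tcf7l2, a transcription factor of the thalamus, was at -0.60. Foxp2, at -0.20, is 1 of the 3 lower and is also counted among the striatal transcription factors above. Choroid plexus genes had 3 of 4 measured genes lower and a median of -0.15, or 0.01 with the floor at the 75th percentile. Endothelial genes had 3 lower and 3 higher with a median of -0.00596, or 0.14 once probe sets marked for cross-hybridisation were dropped. Astrocyte genes had 5 of 7 higher and a median of 0.10, or 0.03 with the same probe sets dropped, with Gfap, the filament gene for which the transgene is named, at 0.59. Both measured olfactory bulb genes were higher, with a median of 0.07, and 0 of 5 blood genes were measured. Their part in the lower signal of the 8 striatal genes was not tested.

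The lists of 2 other kinds of neuron had medians above 0. Genes of GABAergic interneurons, which use the same transmitter as striatal projection neurons, had 8 of 9 measured, 1 lower and 7 higher, or 3 lower and 5 higher after quantile normalization or loess centring. Their median was 0.11 log2, or 0.04 with the mean over probe sets, which also gave 3 lower and 5 higher. The GABA synthesis gene Gad2 was at 0.15 on the brightest probe set and averaged -0.00289 ± 0.22 (SD) over both. Npy was the lower gene, at -0.22. The list is not confined to interneurons, since striatal projection neurons are GABAergic too and share Gad1, Gad2 and Slc32a1. Gad1 and Slc32a1, chosen after their values were seen, differed by 0.02 and 0.0067. Gad1 averaged -0.05 ± 0.09 (SD) over 2 probe sets, and Slc32a1 rests on 1. Cortical projection neuron genes had 2 of 7 lower and 5 higher with a median of 0.06. Of these Slc17a7, the vesicular glutamate transporter, read 4497.8 in the control pool and 3079.7 in the double knockout pool, -0.55 log2, a larger difference than that of any member.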

How the data were processed

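Per the submitters' processing notes, the authors computed the deposited intensity of each probe set with MAS5; no version was given in the labels. The 2% trimmed mean was 500.002 on both arrays. Probe sets were named from the platform annotation (34945 with 1 gene, 932 with several, 9160 with none, 64 controls), and Entrez identifiers of 99.4% of the first matched a RefSeq table of GRCm38.p6.

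Signals were centred on the median log2 difference of probe sets bright on both arrays, then floored at the 50th percentile, then put on the log2 scale, using numpy 2.4.6, scipy 1.17.1, pandas 2.3.3 and statsmodels 0.14.6 under Python 3.11.15. The procedure was tested on simulated data, with differences larger than that of any member and in genes brighter than Drd2, Six3 and Pdyn. That test does not show how well differences of the members' size are recovered. Members and all lists were chosen with earlier results of these data known. Genes named are all members, the targeted genes, and up to 4 measured genes of a list with the largest difference; others are marked as chosen after their values were seen. The number of columns of no listed sample was 0. Alternatives covered scaling, floor and choice of probe set. No gene is named for a pattern like the members', since 2 arrays give none. The number of arrays limits the precision.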

Additional observations from a re-analysis of the deposited data

How the results depend on the processing

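Each of the 8 genes was lower in the double knockout pool under every one of the 10 alternatives in which it was measured. The median of the members ran from -0.36 to -0.27 log2 and that of indirect minus direct from -0.18 to -0.08. With a pseudocount equal to the floor, the medians were -0.27 for the members, -0.19 for the direct genes and -0.29 for the indirect genes. With the floor at the 75th percentile, 5 members were measured, all 5 lower, and the direct median was -0.22. The share of all measured genes lower was 46.1% without centring and with trimmed-mean scaling, 48.6% with loess centring, 53.9% with no floor, 51.7% with the mean over probe sets and 48.1% without probe sets marked for cross-hybridisation.

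Counts of all genes past a fold followed the floor. Lower past 1.2-fold were 971 genes, against 2329 with the floor at the 25th percentile, 280 at the 75th, 532 with the pseudocount and 4153 with no floor, and higher past 1.2-fold were 652 against 1408, 183, 338 and 1947. Past 1.5-fold lower were 90 against 610, 12, 28 and 1874, and higher 43 against 217, 9, 20 and 742. After quantile normalization 70 were lower and 68 higher past 1.5-fold, and after loess centring 74 and 62. Past 2-fold lower were 5 against 97, 0, 0 and 863, and 3 without probe sets marked for cross-hybridisation. Past 2-fold higher were 4 against 42 and 1 with the floor at the 25th and 75th percentile, 393 with no floor, and 2 without the marked probe sets. The cause was not tested, beyond the floor's own effect on how many dim genes enter. No paired analysis was possible because each group has 1 array.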

Other observations

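Neighbouring stages and inputs of the striatal lineage were also listed. Transcription factors of the ganglionic eminence, where striatal projection neurons and many interneurons are born, had 4 of 8 genes measured, 2 higher and 2 lower. Dlx1 read 402.9 in the control pool and 631.6 in the double knockout pool, 1.56-fold higher, and Dlx2 read 518.9 and 627.9, 1.21-fold higher, while Dlx5 differed by -0.19 log2, each on 1 probe set. Sp8, chosen after its values were seen, read 241.2 in the control pool and was under the floor in the double knockout pool, at least 1.35-fold lower.

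Genes of the dopamine input had 2 of 5 measured, Slc18a2, the vesicular monoamine transporter, at 0.12 log2 and Ddc, chosen after its values were seen, at least 1.33-fold lower. Th and Slc6a3, the defining genes of dopamine neurons, also chosen after their values were seen, were under the floor on both arrays. Of 5 genes of striatal cholinergic interneurons only Chat, likewise outside the naming rule and chosen after its values were seen, was measured, at 202.5 in the control pool and under the floor in the double knockout pool, at least 1.13-fold lower.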
